A study of Mus musculus with 225 samples.

Results

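The 38 genes described here are transcribed late in the cell cycle and act in G2 and mitosis, and they were followed cell by cell in the mouse forelimb bud at E12.5. The rule that chose them used gene names and known roles and no measured level, and all 38 were found among the 23165 genes of the deposited count table and among the 10948 genes of the deposited normalized table. The cells came from pooled forelimbs of embryos of a mixed C57Bl6CBAF1 background, heterozygous for *Hoxd11::GFP*. In this allele tau-GFP is joined in frame to the coding sequence of *Hoxd11*, and per the authors the insertion inactivated *Hoxd11*. Every cell of both groups therefore carried the same reporter allele, and only the cells with the brightest GFP were sorted, so that cells with little *Hoxd11* reporter are outside the description. The autopod group, the future digits, comprised 76 retained cells, 59 sequenced in run NXT0072 and 17 in run NXT0143. The zeugopod group, the future forearm, comprised 58 retained cells of run NXT0142 and 65 of run NXT0143. The labels do not tie a cell to an embryo, so each tissue was treated as 1 pooled sample. Shares of cells carry exact binomial 95% intervals, which cover counting error only, and no p-value was computed between the tissues.

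In a cycling cell, cyclin A and cyclin B bind the kinase Cdk1 and drive entry into mitosis. Polo-like and Aurora kinases, kinesins and microtubule binders then build the spindle, and kinetochore proteins attach chromosomes to it while a checkpoint holds anaphase back. Cdc20 opens anaphase by activating the anaphase-promoting complex (APC/C), the ubiquitin ligase that works with the ubiquitin-conjugating enzyme Ube2c to remove cyclin B, and cytokinesis then divides the cell. Most of these genes are known to be repressed in resting cells and switched on together in G2 through the DREAM, B-Myb and FoxM1 complexes, which act at a promoter element called CHR and at CCAAT boxes.

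The retained cells had 186271 to 9437447 reads on genes, with medians between 2641867 and 4048526 in the 4 combinations of tissue and run. Genes with at least 1 read ranged from 1801 to 6162 per cell. Detection of a gene in a cell means 5 reads or more throughout. No cell passed the criterion for muscle, epithelium, endothelium or macrophage, which needed 2 or 3 markers at 5 reads. Only 1 of the 4 blood markers was counted, so blood was not assessed. At least 2 of the 4 limb mesenchyme markers *Prrx1*, *Prrx2*, *Twist1* and *Msx1* were detected in 73 of the retained cells of both tissues, and at least 3 of 5 chondrogenic markers also in 73.

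The cells divided into many with few of the genes and a minority with most of them. No gene of the 38 was detected in 27 cells, and 85 cells had only 1 or 2. In all, 64.8% of the cells (95% interval 57.8 to 71.4) had 0 to 4 of the genes, 31 cells (15.6%, 10.8 to 21.4) had 5 to 18, and 39 (19.6%, 14.3 to 25.8) had 19 or more. Only 12 cells lay near that limit, with 15 to 22 genes, and 9 of these were autopod cells of NXT0072. The highest number was 37, reached by 3 cells, and no cell had all 38. In the 39 cells with most of the genes, the median was 31 genes, and the genes together took 5900 to 39030 CPM (reads scaled to 1000000 gene reads in each cell), with a median of 16804. In cells with 0 to 4, their summed CPM had a median of 19.7 and a highest value of 7389.

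At least 19 of the genes were detected in 16 of 76 autopod cells (21.1%, 12.5 to 31.9) and in 23 zeugopod cells (18.7%, 12.2 to 26.7), and the 2 intervals overlapped. At a limit of 10 genes in place of 19 the shares were 34.2% and 22.8%. Between runs, the autopod share was 23.7% (14 of 59, 13.6 to 36.6) in NXT0072 and 11.8% (2 of 17, 1.46 to 36.4) in NXT0143. The zeugopod share was 20.7% (12 of 58, 11.2 to 33.4) in NXT0142 and 16.9% (11 of 65, 8.76 to 28.3) in NXT0143. The intermediate range of 5 to 18 genes held 16 autopod cells of NXT0072 and no autopod cell of NXT0143, and 15 zeugopod cells. The median number of the genes was 6 for the NXT0072 autopod and 1 for the NXT0143 autopod. It was 2 for the NXT0142 zeugopod and 1 for the NXT0143 zeugopod.

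**Figure D1:**
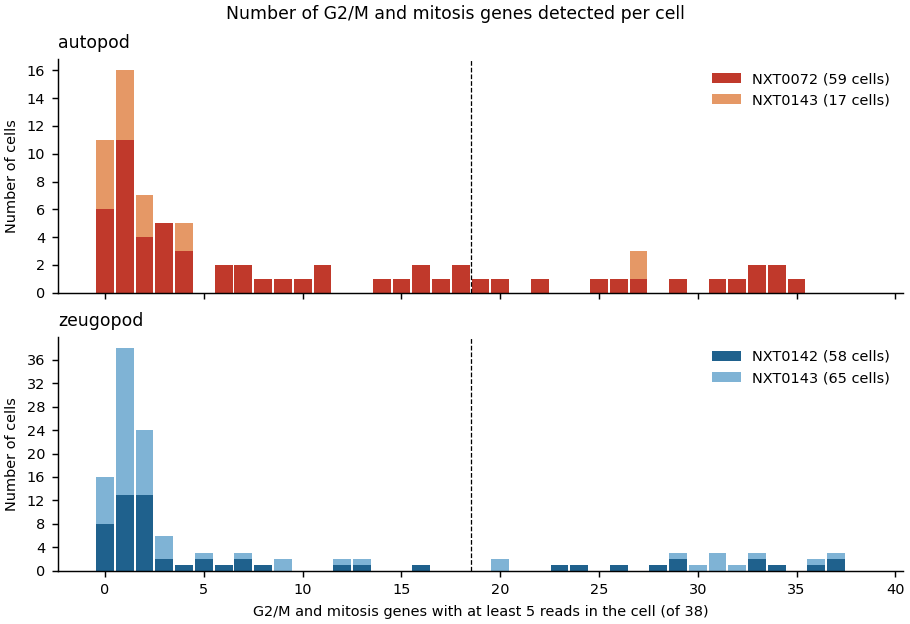
Number of cells (vertical axis, a separate scale for each tissue) by the number of the 38 G2/M and mitosis genes with at least 5 reads (horizontal axis), for autopod and zeugopod, coloured by run. The dashed line separates the 16 autopod and 23 zeugopod cells with 19 or more genes from the rest, and most of the other cells stand at 0 to 4.

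Cells with most of the genes also had more genes detected overall. The median number of all genes with at least 1 read was 4977 in the 39 cells with most of them and 3745 in cells with 0 to 4, and the median reads on genes were 3533865 and 2903759. Across the 76 autopod cells, Spearman's rho between the number of G2/M and mitosis genes and the number of all genes was 0.27, and across the zeugopod cells it was 0.52. Against total reads it was 0.02 and 0.23. After each cell was thinned to 500000 reads, 12 of 72 autopod cells (16.7%) and 21 zeugopod cells (17.6%) had 19 or more of the genes. The part of depth and RNA content in the number of genes detected was not tested further.

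The promoters of these genes were examined for the letters of the CHR element (TTTGAA or TTTAAA) and of the CCAAT box, on both strands, in windows from 250 bases before to 50 bases after the transcription start. RefSeq promoter windows of the assembly GRCm38.p6 were matched for 34 of the 38 genes, and for *Ect2* and *Prc1*, which have 2 windows, the first was used. The CHR letters were found in 30 of the 34 windows (88.2%) against 7519 of all 27025 promoter windows (27.8%). CCAAT was found in 27 (79.4%) against 37.9% of all windows, and both motifs in 25 (73.5%) against 10.9%. The CHR letters from 50 bases before to 50 bases after the start were found in 26 of the 34 windows (76.5%) against 8.24% of all windows. In the 25 bases from the start onward, 14 of the 34 windows (41.2%) held the first base of a CHR match, against 1.93% of all windows, and CCAAT was most frequent from 75 to 50 bases and from 25 to 0 bases before the start, in 13 windows (38.2%) each, against 7.28% and 4.16%. Of the other 9 windows, 5 held the CHR letters only (*Kif20b*, *Birc5*, *Ndc80*, *Kif2c* and *Anln*), 2 held CCAAT only (*Bub1* and *Nek2*), and *Nusap1* and *Nuf2* held neither. A match is a run of letters and not a measured site, and no occupancy was measured here. Neither motif contains the other, so no single match counts as both, although adjacent matches can share a base. The 6 windows below belong to the genes detected in most cells among those with both motifs, and they show how the matches are spaced; capitals mark the motif matches on either strand.
*Top2a* promoter, chr11:99024140-99024439, minus strand: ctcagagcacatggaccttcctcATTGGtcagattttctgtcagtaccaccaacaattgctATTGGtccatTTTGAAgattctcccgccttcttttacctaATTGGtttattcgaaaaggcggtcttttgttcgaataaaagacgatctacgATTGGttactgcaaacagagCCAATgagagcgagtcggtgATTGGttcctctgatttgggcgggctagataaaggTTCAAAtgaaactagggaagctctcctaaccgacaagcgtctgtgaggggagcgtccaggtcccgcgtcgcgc
*Cdk1* promoter, chr10:69352863-69353162, minus strand: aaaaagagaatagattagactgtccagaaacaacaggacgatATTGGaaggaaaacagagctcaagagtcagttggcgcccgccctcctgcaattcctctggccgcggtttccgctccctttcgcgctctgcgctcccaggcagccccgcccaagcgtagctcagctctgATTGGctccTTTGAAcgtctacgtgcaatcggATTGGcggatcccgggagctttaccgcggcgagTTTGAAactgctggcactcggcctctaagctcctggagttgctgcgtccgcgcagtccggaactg
*Cenpf* promoter, chr1:189688037-189688336, minus strand: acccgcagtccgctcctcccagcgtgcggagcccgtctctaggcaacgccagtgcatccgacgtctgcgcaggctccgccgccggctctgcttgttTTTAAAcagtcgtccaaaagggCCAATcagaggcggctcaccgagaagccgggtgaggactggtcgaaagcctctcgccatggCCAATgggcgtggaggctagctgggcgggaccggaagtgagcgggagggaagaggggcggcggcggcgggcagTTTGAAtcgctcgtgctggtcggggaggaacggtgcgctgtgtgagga
*Cenpa* promoter, chr5:30666636-30666935, plus strand: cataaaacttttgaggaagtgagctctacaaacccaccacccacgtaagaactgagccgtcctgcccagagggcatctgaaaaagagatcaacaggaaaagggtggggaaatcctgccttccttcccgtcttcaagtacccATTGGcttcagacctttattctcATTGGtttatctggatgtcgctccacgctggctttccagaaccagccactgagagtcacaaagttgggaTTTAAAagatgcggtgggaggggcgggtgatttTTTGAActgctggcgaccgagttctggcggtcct
*Cenpe* promoter, chr3:135212313-135212612, plus strand: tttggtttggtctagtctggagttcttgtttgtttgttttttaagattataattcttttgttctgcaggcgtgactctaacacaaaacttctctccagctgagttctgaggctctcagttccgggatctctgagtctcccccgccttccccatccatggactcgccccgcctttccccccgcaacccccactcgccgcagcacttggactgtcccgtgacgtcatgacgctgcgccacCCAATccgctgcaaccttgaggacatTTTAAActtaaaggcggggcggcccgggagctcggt
*Mki67* promoter, chr7:135716330-135716629, minus strand: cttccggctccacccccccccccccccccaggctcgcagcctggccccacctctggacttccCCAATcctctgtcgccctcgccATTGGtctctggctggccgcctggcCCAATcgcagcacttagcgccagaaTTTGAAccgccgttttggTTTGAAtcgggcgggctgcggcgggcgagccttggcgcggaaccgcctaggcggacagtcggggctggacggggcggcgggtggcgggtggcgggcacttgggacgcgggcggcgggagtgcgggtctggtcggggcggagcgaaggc
In the *Top2a* window, 6 CCAAT matches stood between 227 and 58 bases before the start and the nearer CHR match began 23 bases before it. In the *Cdk1* window, CHR matches began 71 and 15 bases before the start and CCAAT matches 208, 80 and 48 bases before it. The *Mki67* window was the only one of the 6 with no CHR match within 50 bases of the start.

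The genes differed in the share of cells in which they were detected (the plot of the share of cells with each gene). For 37 of the 38 the median CPM over all retained cells was 0, so the share and the level in cells with the gene are given apart. *Top2a*, the topoisomerase that untangles sister chromatids (11:98992943-99024189, minus strand), was detected in 89 cells (44.7%, 37.7 to 51.9), with a median of 394 CPM in those cells and a highest value of 5339 CPM. *Cdk1*, the mitotic kinase (10:69335146-69352938, minus strand), was detected in 62 cells (31.2%, 24.8 to 38.1), with a median of 348 CPM and a highest value of 3407 CPM. *Nusap1*, a microtubule binder of the spindle (2:119618298-119651244, plus strand), followed with 60 cells (30.2%), and *Cenpf*, a large kinetochore protein (1:189640606-189688086, minus strand), with 59 (29.6%). *Cenpa*, the histone of centromeres (5:30666777-30674830, plus strand), and *Kif20b*, a kinesin of late mitosis (19:34922361-34975745, plus strand), were each detected in 56 cells (28.1%). The interval of *Top2a* overlapped that of *Cdk1* by less than 1 percentage point, and the intervals of the other 5 overlapped with each other.

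At the other end stood *Nek2*, a centrosome kinase (1:191821444-191833050, plus strand), in 13 cells (6.53%, 3.52 to 10.9), and *Nuf2*, of the Ndc80 complex of the kinetochore (1:169497934-169531464, minus strand), in 27 (13.6%, 9.14 to 19.1). *Ccnb1*, cyclin B1 (13:100778650-100786570, minus strand), and *Anln*, anillin of the contractile ring (9:22332012-22389188, minus strand), were detected in 30 cells each (15.1%, 10.4 to 20.8), and *Kif2c*, a kinesin that takes microtubules apart (4:117159639-117182639, minus strand), and *Aurkb*, Aurora kinase B (11:69045647-69051664, plus strand), in 31 each (15.6%). Positions follow GENCODE gene records on GRCm38. The interval of *Nek2* lay below those of all genes detected in 32 or more cells and overlapped those of *Nuf2*, *Ccnb1*, *Anln*, *Kif2c* and *Aurkb*. The highest values were 946 CPM for *Nek2* and 3527 CPM for *Nuf2*.

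**Figure D2:**
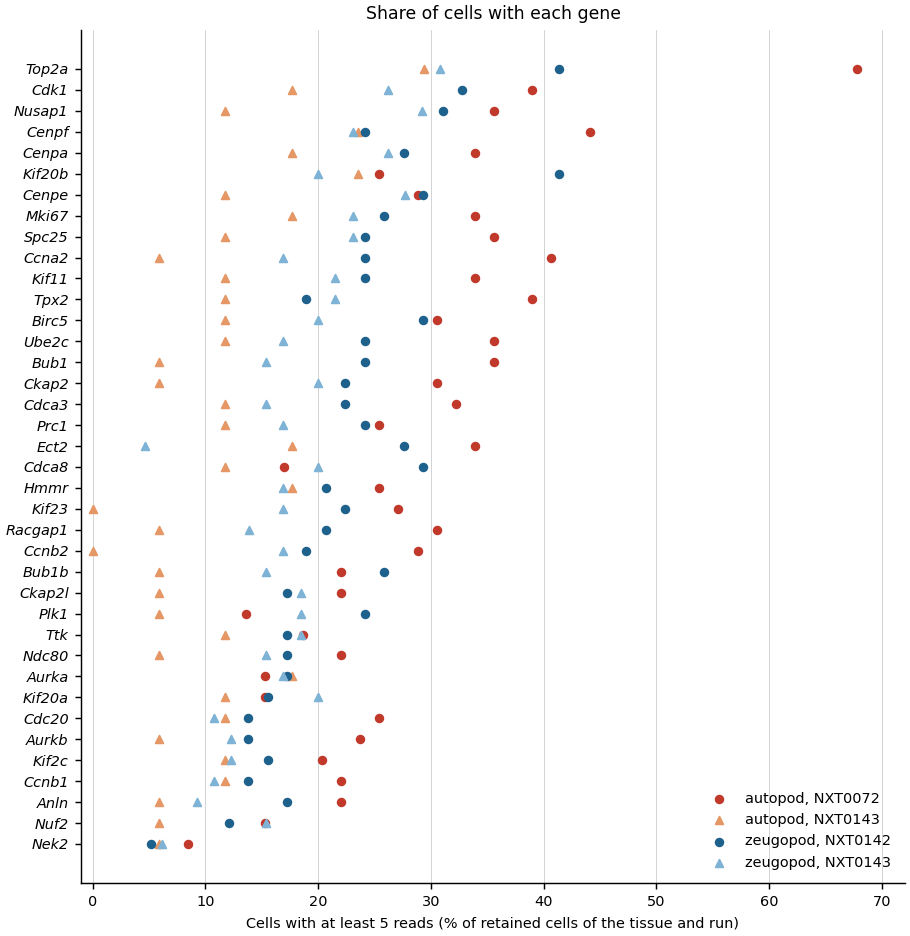
Percent of retained cells with at least 5 reads (horizontal axis) for each of the 38 genes (vertical axis, ordered by the share over all retained cells), with a point for each tissue and run. *Top2a* in autopod cells of NXT0072 stands at 67.8%, and the autopod cells of NXT0143 (17 cells) hold the lowest point for most genes.

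The normalized signal is divided by gene length, so that genes can be compared, and by size factors. These factors did not follow the spike-in totals of the same columns, and the reason was not tested. On this signal the median in cells with the gene ran from 12.3 for *Nek2* to 1330 for *Kif20a*, a kinesin of the central spindle. High medians were also found for *Ube2c* (623), for *Ckap2l*, a spindle protein (593), for *Cdca8*, borealin of the chromosomal passenger complex (471), and for *Nuf2* (469). Low medians were found for *Ccnb1* (21.5), *Cdc20* (36.2) and *Cenpf* (45.3). A gene found in few cells was thus not always low in them, as *Nuf2* and *Kif20a* were in 27 and 33 cells. Reads were kept where they mapped uniquely, and 35.2% of the 75-base windows of the longest *Ccnb1* transcript also occur in transcripts of other loci, most in processed pseudogenes such as *Ccnb1-ps*. This share was 29.3% for *Kif20a*, whose exons overlap *Cdc23* on the opposite strand, 15.2% for *Ccna2* (*Exosc9*) and 12% for *Ube2c* (*Tnnc2*). It was 0 for 18 of the 38 genes. Libraries of this kind do not mark strand, so reads in such overlaps cannot be told apart, and the part of shared sequence in the levels of these 4 genes was not tested.

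Among the cyclins and their kinase, *Ccna2* (cyclin A2) was detected in 32.9% of autopod and 20.3% of zeugopod cells, *Ccnb2* (cyclin B2) in 22.4% and 17.9%, *Ccnb1* in 19.7% and 12.2%, and *Cdk1* in 34.2% and 29.3%. The autopod value was the higher in each of the 4, and the intervals of the tissues overlapped in each. Within NXT0143, where both tissues were sequenced, it was the lower for 3 of the 4, at 5.88% against 16.9% for *Ccna2*, 0% against 16.9% for *Ccnb2* and 17.6% against 26.2% for *Cdk1*, and *Ccnb1* stood at 11.8% against 10.8%. At least 1 of the 4 was detected in 84 cells and all 4 in 19, and these 19 were all among the 39 cells with most of the genes. *Ccnb1* and *Ccnb2* were found together in 23 of the 46 cells with either.

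Among the mitotic kinases, *Plk1* (polo-like kinase 1) was detected in 9 of 76 autopod cells (11.8%, 5.56 to 21.3) and in 26 zeugopod cells (21.1%, 14.3 to 29.4). *Aurka*, the Aurora kinase of spindle poles, was detected in 15.8% and 17.1%, *Aurkb* in 19.7% and 13%, *Ttk*, the checkpoint kinase Mps1, in 17.1% and 17.9%, and *Nek2* in 7.89% and 5.69%. *Bub1* and *Bub1b*, related genes of the spindle checkpoint, were detected in 28.9% and 18.4% of autopod cells and in 19.5% and 20.3% of zeugopod cells. *Aurka* and *Aurkb* were found together in 18 of the 46 cells with either, 16 of them among the cells with most of the genes.

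The 3 kinetochore genes of the Ndc80 complex differed in their shares. *Spc25* was detected in 52 cells, *Ndc80* in 34 and *Nuf2* in 27, and all 3 in 18 of the 63 cells with any. *Cenpe*, the kinetochore kinesin, was detected in 25% of autopod and 28.5% of zeugopod cells. For the chromosomal passenger complex, *Birc5* (survivin) was detected in 50 cells, *Cdca8* in 42 and *Aurkb* in 31, and all 3 in 18 of 64 cells with any. *Cdca8* was detected in 15.8% (8.43 to 26) of autopod and 24.4% (17.1 to 33) of zeugopod cells. For centralspindlin, which organizes the central spindle, *Kif23* and *Racgap1* were detected in 40 cells each and together in 29 of the 51 with either.

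Among spindle and cytokinesis genes, *Kif11*, the motor that separates spindle poles, was detected in 50 cells, *Tpx2*, which activates Aurora kinase A, in 50, *Prc1*, which bundles central spindle microtubules, in 42, and *Ect2*, an activator of cytokinesis, in 42. *Ect2* was detected in 30.3% (20.2 to 41.9) of autopod and 15.4% (9.56 to 23.1) of zeugopod cells, but in 27.6% of zeugopod cells of NXT0142 and 4.62% of those of NXT0143. *Hmmr*, a spindle assembly factor, was detected in 41 cells, *Ckap2* in 45 and *Ckap2l* in 36. Of the remaining genes, *Mki67*, the Ki-67 antigen of the chromosome surface, was detected in 53 cells and *Cdca3* in 44. *Ube2c* and *Cdc20*, which act with the APC/C, were found in 48 and 32 cells, and together in 29 of the 51 with either.

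Over the 38 genes the median share of cells was 24.3% in the autopod and 19.9% in the zeugopod, against 17.1% and 19.5% over all 10948 genes of the normalized table. In cells thinned to 500000 reads, the medians over the 38 genes were 17.4% and 17.6%, so the autopod was not the higher at equal depth. Without thinning, the share was higher in the autopod for 29 of the 38 genes, against 39.5% of all genes. Comparing runs, it was higher in the autopod for 31 genes between NXT0072 and NXT0142 (32.9% of all genes), and for 7 within NXT0143 (46.9% of all genes). The median share per gene was 28% and 11.8% in autopod cells of NXT0072 and NXT0143, and 23.3% and 16.9% in zeugopod cells of NXT0142 and NXT0143, where the medians over all genes were 16.9%, 17.6%, 20.7% and 18.5% in the same order. *Kif23* and *Ccnb2* were detected in 0 of the 17 autopod cells of NXT0143, where the exact interval of a count of 0 reaches 19.5%.

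The difference between tissues in level was computed on the mean of log2(normalized signal + 1), autopod minus zeugopod, a scale on which a difference of 1 was taken as a call with no test. Over all cells, *Ube2c* was the only gene of the 38 past 1 with this pseudocount of 1, at 3.28 in the autopod against 2.05 in the zeugopod, which differ by 1.23. Among all 10948 genes, 2.83% were past 1 in this direction. With a pseudocount of 10 none of the 38 was past 1, where 0.87% of all genes were. On log2(CPM + 1) *Ube2c* (1.20), *Cenpf* (1.19) and *Top2a* (1.03) were, where 2.54% of all genes were. None of the 38 was past 1 in the other direction, in which 6.26% of all genes were. *Ube2c* was detected in 30.3% of autopod cells (20.2 to 41.9) and 20.3% of zeugopod cells (13.6 to 28.5), and its median in cells with the gene was 566 and 158 CPM. *Cdk1* (0.88), *Spc25* (0.81), *Cdca3* (0.81), *Cenpf* (0.80) and *Ccna2* (0.78) followed on the normalized signal, and *Kif20b* (-0.61), *Plk1* (-0.47), *Cdca8* (-0.45) and *Bub1b* (-0.44) had the lowest values. The median over the 38 genes was 0.21, against -0.04 over all genes, with 27 genes above 0 and 11 below.

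The direction was not the same in the 2 separate comparisons that the runs allow. For NXT0072 autopod cells against NXT0142 zeugopod cells the median over the 38 genes was 0.22 and 26 genes were above 0, against a median of -0.13 over all genes. Here *Ube2c* (1.40), *Spc25* (1.18) and *Cdca3* (1.13) were past 1, where 3.27% of all genes were, and *Kif20b* (-1.28) was past 1 in the other direction, where 12.3% of all genes were. In this comparison tissue and run cannot be told apart. Within NXT0143 the median was -0.40 and 34 of the 38 genes were below 0, against a median of 0.06 over all genes. None was past 1 upward, where 10.9% of all genes were. The 6 genes *Ccnb2* (-1.27), *Cenpe* (-1.18), *Cenpa* (-1.11), *Ckap2l* (-1.09), *Kif23* (-1.04) and *Bub1b* (-1.03) were past 1 downward, where 5.17% of all genes were. The autopod side of that comparison had 17 cells, of which 2 had 19 or more of the genes and 15 had 0 to 4. *Ube2c* was at -0.19 there. On log2(CPM + 1), which uses no spike-ins, the medians were 0.21 and -0.57, with 27 genes above 0 in the comparison across runs and 34 below 0 within NXT0143.

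Of the 38 genes, 26 had opposite signs in the 2 comparisons (the plot of the difference between tissues). *Ccnb1* and *Cdc20* were above 0 in both, at 0.56 and 0.17 and at 0.51 and 0.08, and 10 genes were below 0 in both. These 10 were *Kif20b*, *Plk1*, *Cdca8*, *Bub1b*, *Cenpe*, *Kif20a*, *Nuf2*, *Ttk*, *Cenpa* and *Hmmr*. *Kif20b* stood at -1.28 and -0.46, *Plk1* at -0.75 and -0.34, and *Cdca8* at -0.71 and -0.58. The size of these differences has no replicate check, since each tissue is 1 pool.

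**Figure D3:**
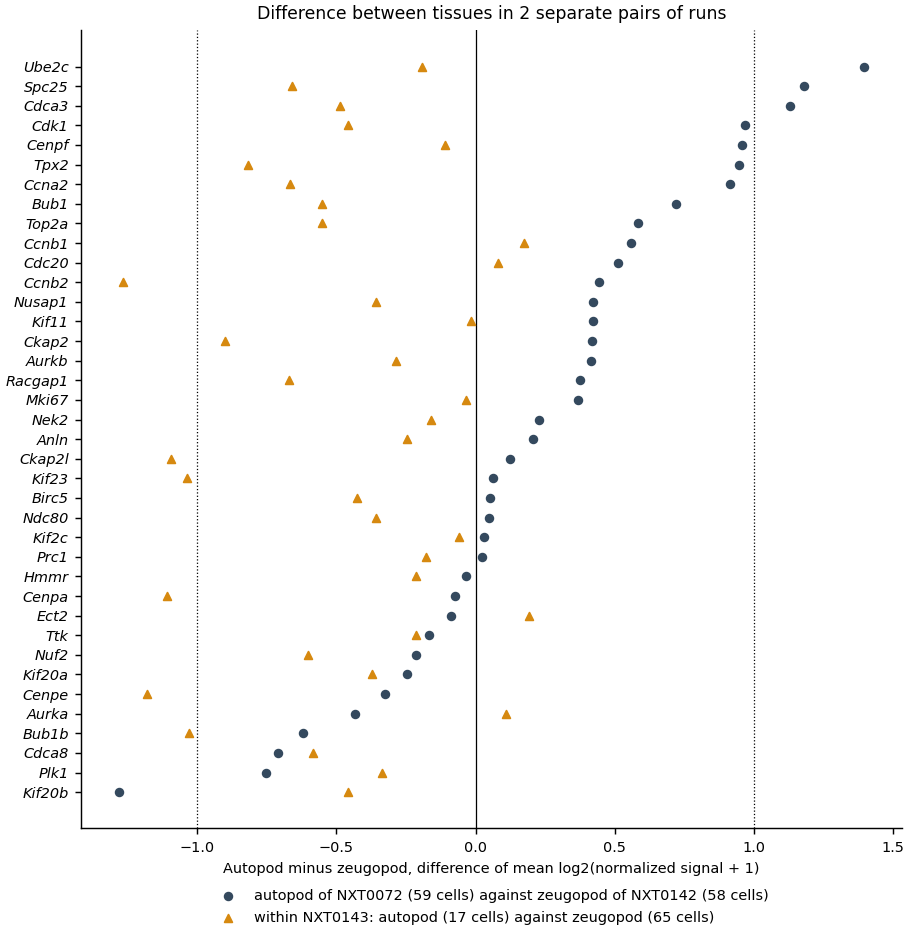
Autopod minus zeugopod difference of mean log2(normalized signal + 1) (horizontal axis) for each of the 38 genes (vertical axis), with circles for NXT0072 autopod cells against NXT0142 zeugopod cells and triangles for the comparison within NXT0143. Dotted lines mark differences of 1 and -1, and the circles lie above 0 for 26 genes while the triangles lie below 0 for 34.

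The genes rose and fell together from cell to cell. Over the 703 pairs of the 38 genes, the median Spearman's rho of log2(CPM + 1) was 0.53 across 76 autopod cells, with a range of 0.01 to 0.81, and 0.57 across the zeugopod cells, with a range of 0.13 to 0.82. Over all pairs of the 8986 genes detected in at least 10% of cells the medians were 0.05 and 0.02. The rank correlation was over 0.3 in both tissues for 664 of the 703 pairs. With the number of genes detected in the cell held constant, the medians over the 38 genes were 0.51 and 0.48, and those over all genes 0.00043 and 0.00054. Within each run the medians were 0.52 and 0.55 in the autopod and 0.57 and 0.56 in the zeugopod. The 0.55 belongs to the autopod cells of NXT0143, 17 cells of which 2 had most of the genes. There, 37 of the 703 pairs did not vary and had no rho, and the other pairs ran from -0.30 to 1. With so few such cells, that median cannot show whether the genes rose and fell together in that run. These values are descriptions over cells that share a pool and a run, and no p-value was attached to them.

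*Ube2c* took part in 11 of the 20 pairs with the highest rho, ranked by the lower of the 2 tissues. The first 5 pairs all held it, with *Tpx2* (0.74 in the autopod and 0.81 in the zeugopod), *Ccnb1* (0.73 and 0.77), *Kif11* (0.80 and 0.73), *Cdc20* (0.74 and 0.72) and *Prc1* (0.72 and 0.82). *Ube2c* was detected in 29 of the 30 cells with *Ccnb1* and in 29 of the 32 with *Cdc20*, while *Ccnb1* was detected in 60.4% of the cells with *Ube2c*. The median rho of *Ube2c* with the other genes was 0.65 in the autopod and 0.69 in the zeugopod, and *Kif11* (0.63 and 0.64), *Prc1* (0.62 and 0.65) and *Tpx2* (0.60 and 0.67) followed. The lowest medians belonged to *Kif20b* (0.35 and 0.45), *Nek2* (0.44 and 0.36) and *Nuf2* (0.37 and 0.62). *Nek2* was detected in 13 cells only, which limits its rank correlation.

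The 5 lowest pairs were *Cenpe* with *Nuf2* (0.01 in the autopod and 0.58 in the zeugopod), *Ect2* with *Nek2* (0.42 and 0.13), *Bub1b* with *Nuf2* (0.18 and 0.69), *Kif20a* with *Ect2* (0.20 and 0.30) and *Ccnb1* with *Kif20b* (0.20 and 0.45). Several of these differed between tissues, and that difference was not tested. *Nuf2* was detected in 10 autopod cells. The products of *Cenpe* and *Nuf2* both act at the kinetochore, and the genes were detected together in 19 cells, 70.4% of those with *Nuf2* and 35.2% of those with *Cenpe*. Among genes of 1 complex, and among related genes, values differed. The rank correlation was 0.36 to 0.39 in the autopod and 0.58 to 0.63 in the zeugopod among the 3 Ndc80 complex genes, 0.61 and 0.65 between *Kif23* and *Racgap1*, and 0.54 to 0.61 and 0.56 to 0.72 among the passenger complex genes. It was 0.29 and 0.65 between the related kinases *Aurka* and *Aurkb*, and 0.24 and 0.41 between the related kinesins *Kif20a* and *Kif20b*.

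**Figure D4:**
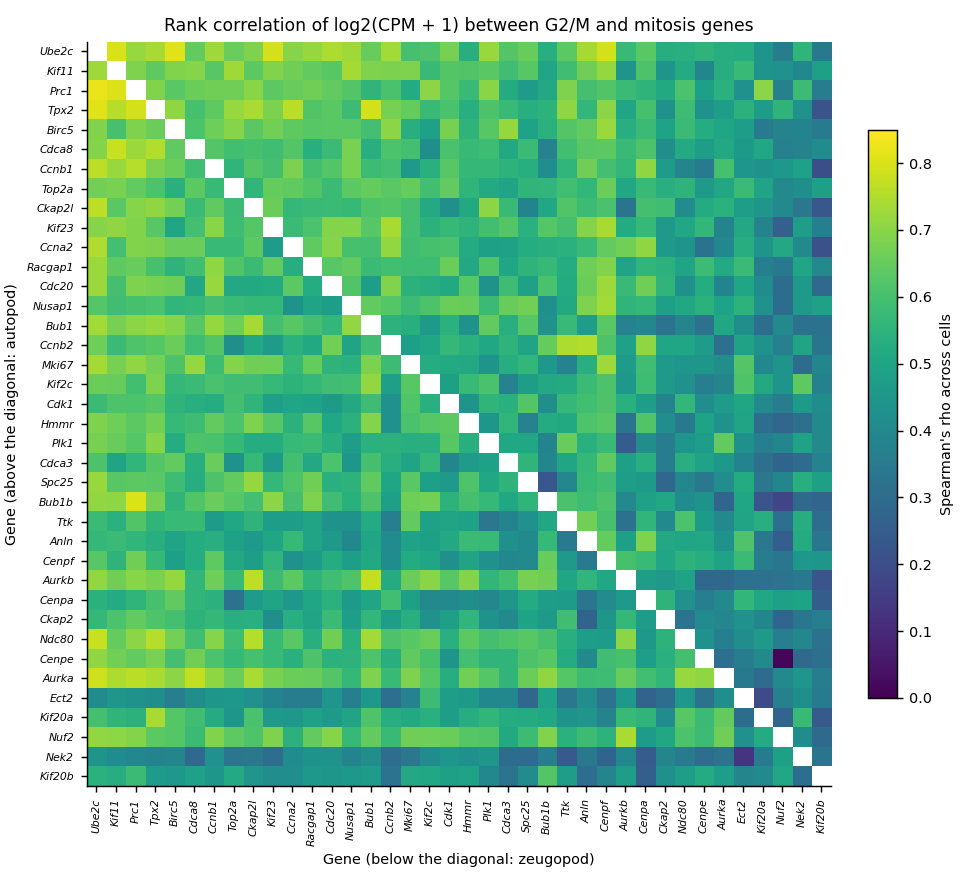
Spearman's rho of log2(CPM + 1) for each pair of the 38 genes (colour, from 0 to 0.85), with autopod cells above the diagonal and zeugopod cells below it. Genes on both axes are ordered by the lower of their 2 median rho values, so that *Ube2c*, *Kif11*, *Prc1* and *Tpx2* form the bright corner and *Nuf2*, *Nek2* and *Kif20b* the dark edge.

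The genes did not all keep the same company. For each gene, the number of the other 37 genes detected in the same cell was taken over the cells that had it. The lowest medians were 15 for *Top2a*, 19 for *Kif20b* and 20.5 for *Cdk1*, and the highest were 31 for *Nek2*, 31 for *Ccnb1* and 30.5 for *Cdc20*. *Nek2*, *Ccnb1* and *Cdc20* also had the lowest median levels in cells with the gene, at 20.6, 9.73 and 21.1 CPM. *Top2a*, *Kif20b* and *Cdk1* stood at 394, 213 and 348 CPM. *Nuf2* and *Ckap2l*, with medians of 30 other genes, stood at 539 and 411 CPM. A gene at a low level passes 5 reads less easily, and the part of level in this ranking was not tested. In cells with 0 to 4 other genes, at most 132 cells for any gene, *Top2a* was detected in 21.4%, *Cdk1* in 12.3%, *Kif20b* in 12.2% and *Cenpa* in 10.1%, and 28 of the 38 genes in under 5%. *Tpx2*, *Prc1*, *Kif2c*, *Nuf2*, *Ccnb1* and *Nek2* were detected in none of these cells, and a count of 0 there allows at most 2.33%. *Tpx2*, found in 50 cells overall and thus as often as *Ccna2*, *Kif11* and *Birc5*, was detected only where 5 or more of the others were.

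In cells with 5 to 18 other genes the share ran from 3.23% for *Ccnb1* (1 of 31 cells) to 76.7% for *Top2a*, with a median of 27% over the genes. *Nusap1* (50%), *Tpx2* (46.9%), *Cdk1* (46.7%), *Mki67* (43.8%) and *Cenpf* (43.8%) were frequent there, and *Nek2* (6.25%), *Anln* (6.25%) and *Cdc20* (12.5%) were not. In cells with 19 or more others the share had a median of 79.3%, and 37 of the 38 genes were in more than 50% of these cells. High shares there follow in part from the choice of cells, since the class requires 19 of the other 37 genes. *Top2a* was in all 38 such cells, *Ube2c* in 37 of 38 and *Nek2* in 11 of 38. *Ccnb1* went from 1 of 31 cells with 5 to 18 others to 29 of 39 cells with 19 or more. The median level in cells with the gene also differed between classes. For *Top2a* it was 7.16 CPM with 0 to 4 others, 280 CPM with 5 to 18 and 2024 CPM with 19 or more, and for *Cdk1* it was 11.2, 243 and 525 CPM.

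In cells with few of the other genes, *Top2a* was detected in 12 of 29 such autopod cells of NXT0072 (41.4%, 23.5 to 61.1), 3 of 15 of NXT0143 (20.0%), 6 of 38 zeugopod cells of NXT0142 (15.8%) and 7 of 49 of NXT0143 (14.3%). The median in the 12 cells was 7.5 reads, just above the limit of 5. After thinning, *Top2a* passed in 5 of 29 (17.2%) and 0 of 14 autopod cells of these runs, and in 5 of 36 (13.9%) and 3 of 48 (6.25%) zeugopod cells, so the higher autopod share of NXT0072 was mostly gone and the order within NXT0143 was turned. *Kif20b* was detected in 8 of 39 such zeugopod cells of NXT0142 (20.5%), with a median of 550.5 reads, and 7 of 37 (18.9%) passed after thinning. In 54 cells a lone gene of the 38 was detected, most often *Top2a* (7 cells), *Cdk1* (6) or *Kif20b* (6).

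**Figure D5:**
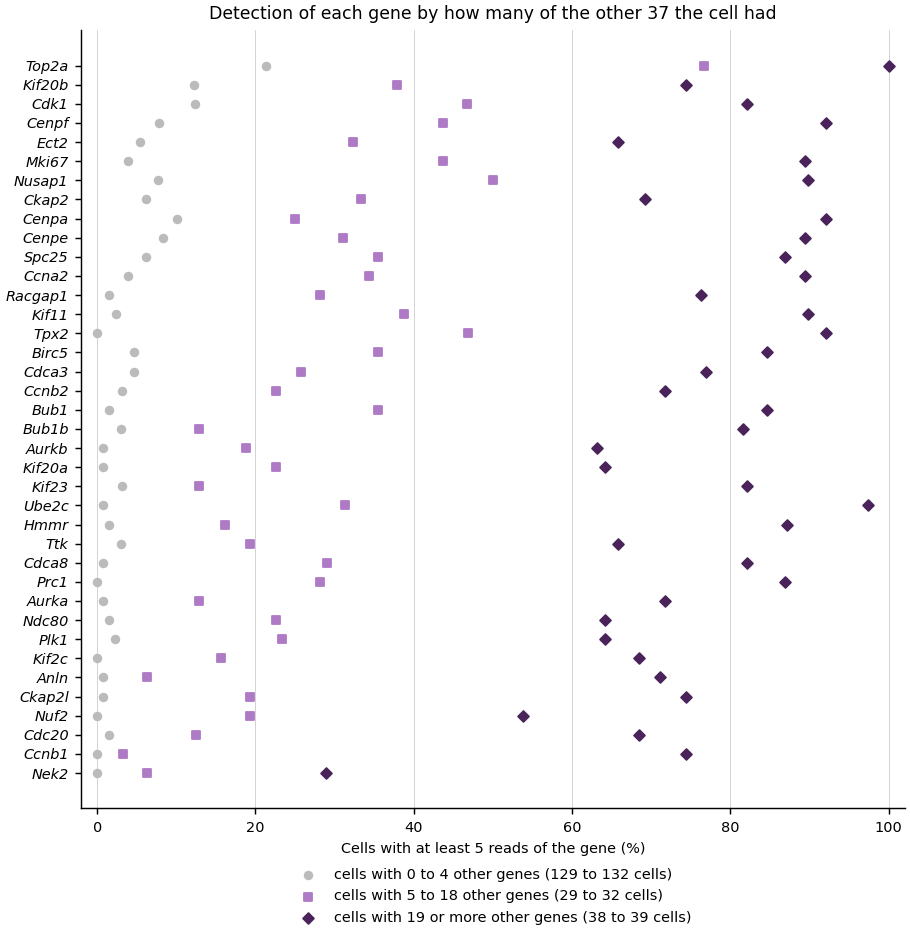
Percent of cells with at least 5 reads of each gene (horizontal axis) in cells with 0 to 4, 5 to 18 and 19 or more of the other 37 genes (grey circles, light squares and dark diamonds). Genes are ordered from top to bottom by the median number of other genes in the cells that had them, from 15 for *Top2a* to 31 for *Nek2*, and the grey circles reach 21.4% for *Top2a* and 0% for *Ccnb1*.

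Cell cycle phases called by cyclone, which scores pairs of genes ordered by level, put 159 of the retained cells in G1, 5 in S and 35 in G2/M. The 5 cells called S had low S scores, from 0.011 to 0.376. Their G1 scores were at most 0.484 and their G2/M scores at most 0.418, so S phase was not shown for them. Of the 38 genes, 32 are among the 667 genes of its pairs, so the calls are not independent of them. Cells called G2/M had 17 to 37 of the genes, with a median of 31, and 33 of the 39 cells with 19 or more were called G2/M. The 6 others were called G1 (4 cells) or S (2 cells). The G2/M share was 18.4% in the autopod and 17.1% in the zeugopod, and by run 22% (NXT0072) and 5.88% (NXT0143) in the autopod and 19% (NXT0142) and 15.4% (NXT0143) in the zeugopod.

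Outside the 38, genes were ranked by how closely their level resembled the mean log2(CPM + 1) of the 38. By the lower rho of the 2 tissues (over all cells of each), the first 10 were *Kif15* (0.66), *2810417H13Rik* (0.66), *Smc4* (0.63), *Tacc3* (0.63), *Esco2* (0.60), *Incenp* (0.59), *Cit* (0.59), *Cks2* (0.58), *Cdk3-ps* (0.58) and *Cdca2* (0.57). Of these, *Smc4* and *Cks2* stand in the cell cycle lists described next. *Kif15* is a spindle kinesin, *Smc4* a condensin subunit, *Esco2* a cohesin acetyltransferase and *Incenp* the scaffold of the chromosomal passenger complex. The rho was over 0.5 in both tissues for 30 of 8949 genes outside, whose median rho was 0.07 in the autopod and 0.09 in the zeugopod. For the 37 of the 38 genes detected in at least 10% of cells it ran from 0.46 to 0.74.

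Other lists of cell cycle genes were compared by the same measures. Of 8 condensin genes, a median of 5 were detected in cells with 19 or more of the 38 genes and 1 in cells with 0 to 4, and their median rho with the mean of the 38 was 0.49 in the autopod and 0.50 in the zeugopod. Of 10 cohesion and anaphase genes the medians were 7 and 2, with rho of 0.43 and 0.47, and of 15 genes of G2/M control, such as *Foxm1*, *Wee1* and *Cdc25c*, they were 5 and 1, with 0.31 and 0.24. *Mad2l1*, of the spindle checkpoint, was detected in 71.8% of the 39 cells and in 6.98% of the cells with 0 to 4. The S phase list of 24 genes went from 6 to 11 genes, with rho of 0.23 and 0.27, and the 12 genes of the APC/C core from 5 to 7, with 0.17 and 0.18. The 14 genes of G1 and cell cycle exit were at 5 and 6, with rho of -0.08 and 0.05, and their summed CPM was 5031 in cells with 0 to 4 of the 38 and 2409 in cells with 19 or more. Cells with most of the 38 had more genes detected in all, as given above.

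Past a difference of 1 between tissues over all cells were *Rad21*, a cohesin subunit, upward (1.55), and *Smc3*, another cohesin subunit (-1.54), *Gins2* (-1.14) and *Slbp* (-1.26) of S phase, and *Anapc4* (-1.16) and *Anapc5* (-1.79) of the APC/C core, downward. None of the G2/M control, condensin or G1 and exit genes was over all cells. Of all 10948 genes, 2.83% were past 1 upward and 6.26% downward over all cells. Within NXT0143, 5 of the 12 G1 and exit genes with a normalized signal were past 1 upward (*Ccnd2*, *Cdkn1b*, *Cdkn1c*, *Btg1* and *Btg2*). The median over that list was 0.71. Past 1 upward were also 3 of the 24 S phase genes (*Mcm2*, *Mcm4* and *Chaf1a*) and *Smc1a* of the cohesion list (1.92). *Mad2l1* (-1.26) was past 1 downward. Of all genes, 10.9% were past 1 upward and 5.17% downward in that comparison. The median of the G1 and exit list was -0.19 for NXT0072 against NXT0142. *Rad21* stood at 2.17 between NXT0072 and NXT0142 and at -0.47 within NXT0143, *Smc3* at -2.16 and 0.13, and *Slbp* at -2.19 and 0.69, so these 3 changed sign. *Smc1a* and *Mad2l1* also changed sign, at -2.03 and 1.10 between NXT0072 and NXT0142. *Anapc5* was past 1 downward in both, at -2.04 and -1.34.

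The cells with most of the genes were unevenly spread over the marker classes. Among the 73 cells with the chondrogenic criterion (at least 3 of *Sox9*, *Col2a1*, *Acan*, *Col9a1* and *Matn1*), 8 had 19 or more of the 38 genes (11%, 4.85 to 20.5), against 31 of the other cells (24.6%, 17.4 to 33.1). The share was also the lower in each tissue and run taken alone, at 11.1% against 34.4% for the NXT0072 autopod, 0 of 8 against 2 of 9 for the NXT0143 autopod, 15.8% against 23.1% for the NXT0142 zeugopod and 10.5% against 19.6% for the NXT0143 zeugopod. The intervals of the 2 shares overlapped in each of these 4. Among the 73 cells with 2 or more limb mesenchyme markers, 28 had 19 or more of the genes (38.4%, 27.2 to 50.5), against 11 of the others (8.73%, 4.44 to 15.1). All 16 such autopod cells were among the 48 with these markers, and none among the other 28, where the exact interval reaches 12.3%. A deeper cell passes every such criterion more easily, and the part of depth was not tested. Among 17 zeugopod cells with the tendon criterion, 4 (23.5%, 6.81 to 49.9) had 19 or more.

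Across combinations of *Hoxd* genes, where a gene was on at a normalized value of 5 or more that also reached 5% of the top *Hoxd* value in its cell, the shares rested on few cells. In the autopod, 19 or more of the 38 genes were detected in 5 of 16 cells with *Hoxd13* alone (31.3%, 11 to 58.7). The share was 1 of 13 with *Hoxd13* and *Hoxd11* (7.69%, 0.19 to 36) and 1 of 9 with *Hoxd13* and *Hoxd10* (11.1%). It was 2 of 7 with *Hoxd13*, *Hoxd11* and *Hoxd10* (28.6%, 3.67 to 71) and 4 of 8 with *Hoxd10* to *Hoxd13* (50%, 15.7 to 84.3). The cells with *Hoxd10* to *Hoxd13* had the most genes detected, with a median of 5564, against 3140 with *Hoxd13* alone. All cells with *Hoxd13* alone, with *Hoxd13* and *Hoxd10* or with *Hoxd10* to *Hoxd13* were of NXT0072. The 1 cell with *Hoxd13* and *Hoxd11* was of NXT0143, against 0 of 11 in NXT0072. These combinations rest on the normalized signal and carry its doubt. In the zeugopod the share was 7 of 16 with *Hoxd10* alone (43.8%, 19.8 to 70.1), 2 of 19 with *Hoxd11* alone (10.5%, 1.30 to 33.1) and 3 of 17 with both (17.6%, 3.80 to 43.4). The intervals overlapped between all these combinations.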

How the data were processed

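Single cells captured on a Fluidigm C1 chip were amplified with the SMARTer kit and made into Nextera XT libraries. Per the labels, the authors mapped 75-base reads to GRCm38 (mm10) with Bowtie2 in local mode, keeping unique matches, and deposited raw counts per gene in 225 cells (96 autopod and 129 zeugopod). They also deposited a normalized signal for 10948 genes in 199 cells (76 and 123) that passed their quality filter, made by dividing counts by spike-in size factors and gene length in kb, with 1 added to the scaled count. No mapping was repeated, the 92 spike-ins were left out of totals, and their counts were used for 1 check only. The size factors that the normalized values imply did not follow the spike-in totals of the same columns (Spearman's rho -0.22, 0.09 and 0.12 in NXT0072, NXT0142 and NXT0143). The reason was not tested, and values on the normalized signal carry this doubt. CPM and shares of cells were computed without the size factors. Both were taken over the retained cells, and per the paper its filter also used the percent of reads on spike-in sequences. Whether the choice of retained cells carries the same doubt was not tested. Captures of more than 1 cell were not searched for.

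The 38 genes, the other lists and the measures were chosen with earlier results of these data known. CPM was computed from the counts. A gene was detected at 5 reads. Differences were of mean log2(normalized signal + 1), with a pseudocount of 1 and a call at 1. Genes detected in at least 10% of cells entered correlations. Cells were thinned to 500000 reads with seed 42. Where no exact interval is given, an upper limit for 0 cells is 3 cells. Reads carry no molecular identifiers. All 38 genes could be named. Full values were given for the 5 in most and the 5 in fewest cells, with ties, and for those past a difference of 1. Pairs, companions and outside genes were named at the extremes of their ranking.

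Python 3.11.15, pandas 2.3.3, scipy 1.17.1 and scran 1.30.0 were used. The calculations were tested on simulated data. Alternatives comprised other minima, thinning, CPM, other pseudocounts, partial correlations and each run alone.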

Additional observations from a re-analysis of the deposited data

Results flagged for a closer look

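Of the 26 sequenced cells left out by the authors' filter, 8 had at least 1 of the 38 genes at 5 reads (30.8%, 95% interval 14.3 to 51.8), against 172 of the retained cells (86.4%, 80.9 to 90.9). These cells had 17 to 2926028 reads on genes, with a median of 25639.5. The most genes in such a cell was 10, in 2 zeugopod cells of NXT0143 with 143483 and 77134 reads on genes, and none had 19 or more. They stood out because they lie outside the comparisons above.

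The difference between tissues had opposite directions in the 2 comparisons by run. The median over the 38 genes was -0.40 within NXT0143 and 0.22 for NXT0072 autopod cells against NXT0142 zeugopod cells, on the scale of mean log2(normalized signal + 1). The autopod cells of NXT0143 numbered 17, of which 2 had 19 or more of the genes. The difference between the 2 comparisons was not tested.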

How the results depend on the processing

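Of 68 alternative values, 43 stayed within the counting interval, the spread between runs or 1.5 times the main count. The share of autopod cells with most of the genes, 21.1%, was 34.2% at a limit of 10 genes and 11.8% in NXT0143 alone, and that of the zeugopod stayed between 15.4% and 22.8%. The median autopod share per gene, 24.3%, was 11.8% in NXT0143 alone and 17.4% in thinned cells, where that of the zeugopod was 17.6%. The median difference between tissues, 0.21, was -0.40 within NXT0143 and -0.57 with CPM within NXT0143. Otherwise it lay between 0.03 (CPM in thinned cells) and 0.28 (pseudocount of 0.1). For the counts of called genes, the percentages in brackets are the shares of all genes called at the same setting. The count of genes higher in the autopod, 1 (2.83%), was 3 with CPM (2.54%) and 4 with a pseudocount of 0.1 (4.81%). It was 0 with a pseudocount of 10 (0.87%) and 0 within NXT0143 (10.9%, with CPM 0 and 10.0%). Between NXT0072 and NXT0142 it was 3 (3.27%, with CPM 6 and 3.62%). The count lower, 0 (6.26%), was 6 within NXT0143 (5.17%, with CPM 5 and 8.36%). Between NXT0072 and NXT0142 the count lower was 1 (12.3%, with CPM 1 and 14.9%). CPM by run was added after seeing the data. The median rho in the autopod, 0.53, was 0.56 on normalized values, 0.51 as partial rho, 0.49 in thinned cells, 0.59 for the 13 genes detected in 25% of cells and 0.51 in cells with at least 1 of the genes. In the zeugopod, 0.57, it was 0.60, 0.48, 0.59 and 0.55 under the first 4 of these. The cause of these changes was not tested. No paired analysis was possible because the results come from no test and the cell numbers of the tissues do not pair cells. Depth limits the calls near 5 reads, and the 17 autopod cells of NXT0143 limit the comparison within that run.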
